A study of Mus musculus with 4 samples.

Results

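The genes described here are 37 markers of hepatic stellate cells and components of the extracellular matrix, followed in the livers of mice without Ilrun. Their probes were picked by name: every array probe whose listed gene, or whose RefSeq accession, carried 1 of the 37 symbols was taken, which gave 44 probes. The genes themselves, their grouping and the lists around them were chosen with earlier results of these data known. Counts and medians set beside all genes are therefore description and not a test. The 37 genes are part of the 31709 on the array, and 35 of them were among the 19651 genes bright enough to be tested. Col5a2, a minor chain of fibrillar collagen, and Lox, the enzyme that cross-links collagen and elastin, were well above background in 0 of 8 channels and have no ratio here.

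Liver RNA in 4 samples of IlrunKO mice, which lack Ilrun throughout the body, was compared with that in 4 samples of wild-type (WT) mice. All mice were male, of strain C57BL/6, kept on chow and fasted for 4 h before the liver was frozen. None is labelled as treated, so the comparison is between unchallenged livers. Each of 4 two-colour Agilent arrays held 1 IlrunKO and 1 WT sample, the IlrunKO sample being labelled red (Cy5) on arrays 1 and 2 but green (Cy3) on arrays 3 and 4. The labels call the samples biological replicates, but do not say whether littermates were used, whether mice were pooled or which part of Ilrun was deleted. Results are given as the log2 of the IlrunKO level over the WT level on the same array, so that a ratio under 0 means less RNA in IlrunKO, with the SD over the 4 arrays (n = 4). Adjusted p values come from limma with Benjamini-Hochberg adjustment over all genes tested, and the words rose and fell are kept for genes where that p is under 0.05.

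Hepatic stellate cells lie between the hepatocytes and the sinusoidal endothelium, where in a healthy liver they store vitamin A and secrete matrix and growth factors at a low rate. On injury they turn into contractile myofibroblasts that express smooth muscle actin and lay down fibrillar collagen, a change driven by transforming growth factor beta and platelet-derived growth factor. Matrix genes are not particular to these cells: portal fibroblasts, vascular smooth muscle and endothelium also make collagens and basement membrane, and hepatocytes make most fibronectin.

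The Ilrun transcript itself was 18.5-fold lower, with ratios of -4.12, -4.11, -4.04 and -4.56 on arrays 1 to 4 (adjusted p = 0.00331), and a dimmer Ilrun probe had a mean of -2.15 (4.42-fold lower, adjusted p = 0.0262 over probes). Each channel had between 60.0% and 67.1% of its 39429 probes clear of background, and all 14 hepatocyte markers examined were among the genes tested. A 95% confidence interval of a ratio typically reached 0.147 to either side, and the number of arrays limits that precision.

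No stellate or matrix gene rose or fell by limma. Of the 35 tested, 0 had an adjusted p under 0.05, against 1.37% of all genes (0.712% higher and 0.656% lower), and the smallest was that of Ecm1 (0.0669). Their ratios nevertheless lay mostly on 1 side of 0. The mean ratio was below 0 for 32 of the 35, where 50.6% of all genes were below 0, and the median over the 35 was -0.21 beside -0.00 for all genes. At an unadjusted limma p under 0.05 there were 14 genes lower and 1 higher, against a background of 9.86% of all genes lower and 10.6% higher. A ratio below 0 on all 4 arrays was seen in 14 of the 35 (11.6% of all genes), and a ratio above 0 on all 4 in 1 (11.7% of all genes). In 5 genes every IlrunKO channel was below every WT channel (4.2% of all genes), and in 1 every IlrunKO channel was above (4.73% of all genes). Bulk tissue cannot tell fewer stellate cells from less of these RNAs in each cell.

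**Figure D1:**
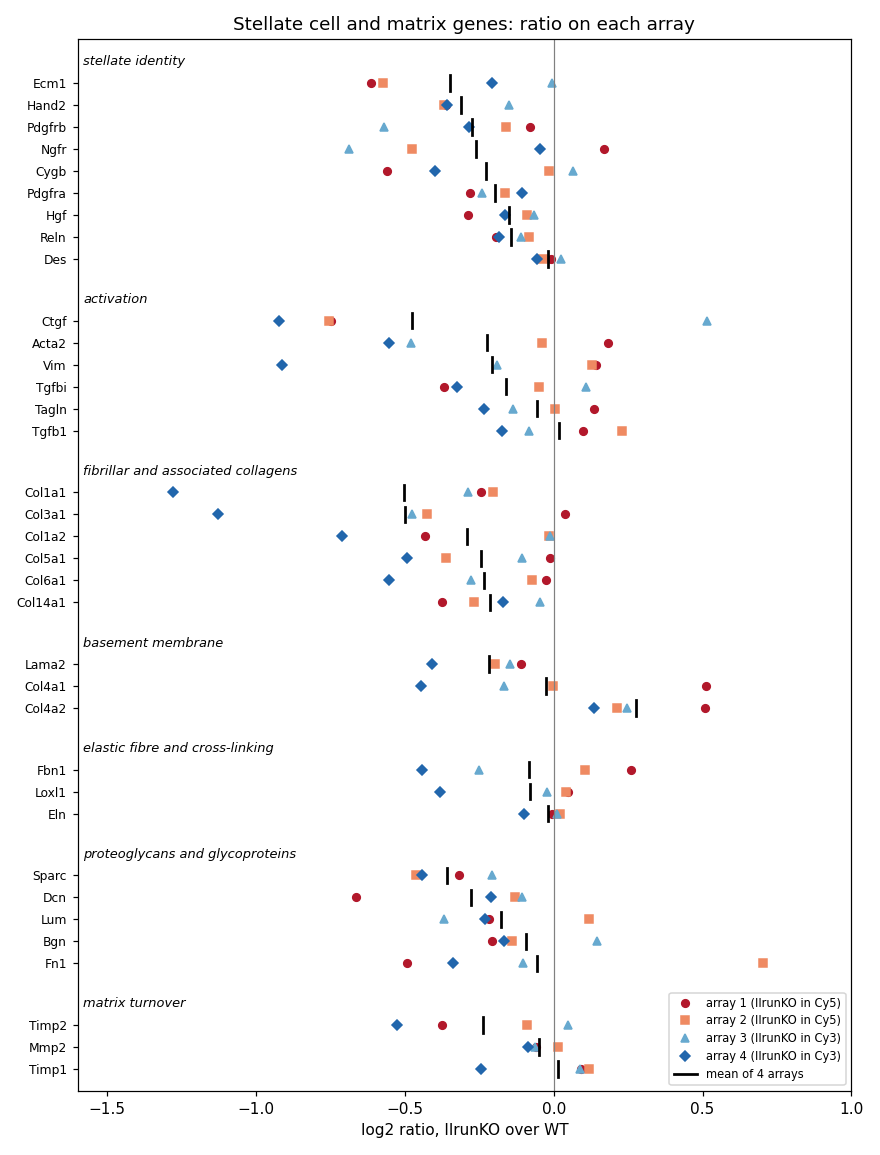
Log2 ratio of IlrunKO over WT on each of the 4 arrays (symbols) and their mean (black bars) for the 35 genes tested, grouped by role. Most points lie left of 0; Col4a2 is the gene with all 4 points to the right, and array 4 gives the lowest point for Col1a1, Col3a1 and Vim.

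The shift was not equal on every array. Of the 35 genes, 24 lay below 0 on array 1, 24 on array 2, 26 on array 3 and 34 on array 4, and the median ratio was -0.11, -0.07, -0.10 and -0.33 in the same order. Array 4 therefore carried the largest shift. Without it, 27 genes lay below 0, the median was -0.12, and 7 genes had an unadjusted limma p under 0.05, where 16.4% of all genes did.

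Among the 9 genes that mark stellate cells, all had a mean ratio below 0, with a median of -0.23. The median stood at -0.28, -0.16, -0.11 and -0.18 on arrays 1 to 4, so it was below 0 on each of them and array 4 was not the lowest. At an unadjusted limma p under 0.05 there were 6 of the 9, all lower, beside 9.86% of all genes lower. The 5 genes whose IlrunKO channels all lay below the WT channels were all in this group: Ecm1, Hand2, Pdgfrb, Reln and Hgf.

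Ecm1 encodes a secreted matrix protein that quiescent stellate cells and hepatocytes produce and that holds latent transforming growth factor beta in check. Its probe (chromosome 3, 95538120 to 95538178 of mm9) had log2 levels of 13.33, 13.47, 13.85 and 13.66 in the IlrunKO channels of arrays 1 to 4 and of 13.94, 14.04, 13.86 and 13.87 in the WT channels. The ratios were thus -0.61 and -0.57 with IlrunKO in Cy5 but -0.01 and -0.21 with IlrunKO in Cy3. The IlrunKO values did not overlap the WT values, although on array 3 they differed by almost nothing. Mean ratio was -0.35 ± 0.29, or 1.27-fold lower (95% confidence interval -0.49 to -0.21, adjusted p = 0.0669 in limma). That interval and p come from a fit in which a dye term takes up the gap between the dye orientations. Without the dye term the adjusted p of Ecm1 was 0.237 in limma. A dimmer Ecm1 probe gave -0.25, -0.10, -0.18 and -0.56, with a mean of -0.28 (adjusted p = 0.156 over probes), so both probes were below 0 on every array but ranked the arrays differently.

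Hand2, a transcription factor that sets stellate cell identity, was steadier. Its IlrunKO levels were 7.41, 7.40, 7.73 and 7.39 and its WT levels 7.77, 7.77, 7.88 and 7.75 on arrays 1 to 4. Arrays 1, 2 and 4 were nearly alike in ratio (-0.36, -0.37 and -0.36) and array 3 was closer to 0 (-0.15). The highest IlrunKO level stayed just under the lowest WT level. Mean ratio was -0.31 ± 0.11, or 1.24-fold lower (adjusted p = 0.0783 in limma); the probe lies on chromosome 8 at 59803220 to 59803279 (mm9).

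Both receptors for platelet-derived growth factor had ratios below 0 on all 4 arrays. Pdgfrb, the receptor through which activated stellate cells proliferate, had IlrunKO levels of 7.57, 7.53, 7.40 and 7.29 and WT levels of 7.64, 7.69, 7.97 and 7.57. Array 3 was the furthest from 0, and the highest IlrunKO and lowest WT levels were within 0.01 of each other. The Pdgfrb ratio was -0.27 ± 0.21 (1.21-fold lower, adjusted p = 0.121 in limma). Pdgfra, the receptor found on quiescent stellate cells and fibroblasts, ranged from -0.28 to -0.11 over the arrays with a mean of -0.20 (adjusted p = 0.143 in limma), and its IlrunKO and WT channels overlapped.

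Reln, a secreted glycoprotein that stellate cells make in the liver, ranged from -0.19 to -0.08 with a mean of -0.14 (adjusted p = 0.209 in limma). Hgf, the growth factor by which stellate cells stimulate hepatocytes, ranged from -0.29 to -0.07 with a mean of -0.15 (adjusted p = 0.236 in limma). Reln and Hgf were small but even differences in this fit, with neither genotype overlapping the other. Their probes were dim, at mean log2 levels of 6.77 and 7.03, and the size of such ratios depended on the background correction. With an offset of 0 in that correction Reln stood at -0.29, Hgf at -0.28 and Pdgfra at -0.35. With the processed signals of the scanner files they stood at -0.46, -0.42 and -0.52. Hand2 and Pdgfrb moved too, to -0.44 and -0.37 with offset 0 and to -0.53 and -0.55 with processed signals. The remaining 3 markers were uneven or flat. Cygb, the globin of stellate cells, stood at -0.56, -0.02, 0.07 and -0.40 (mean -0.23 ± 0.30, adjusted p = 0.38 in limma). Ngfr, the low-affinity neurotrophin receptor, stood at 0.17, -0.48, -0.69 and -0.05 (mean -0.26 ± 0.39, adjusted p = 0.416 in limma). In Cygb arrays 1 and 4 were low, and in Ngfr arrays 2 and 3. Des, the intermediate filament protein used to stain rodent stellate cells, lay between -0.06 and 0.02 on all arrays. Its probe was dim as well (mean log2 level 6.56), so a flat ratio does not show equal levels. With processed signals Des stood at -0.10.

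**Figure D2:**
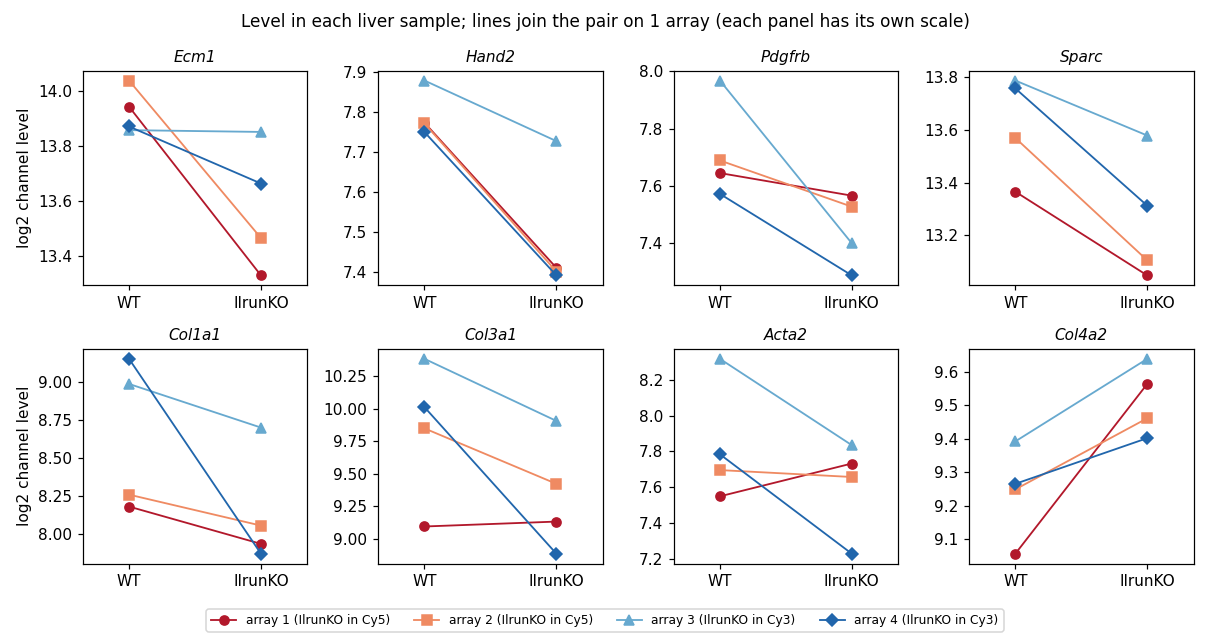
Log2 channel levels in the WT and IlrunKO sample of each array for 8 of the genes; a line joins the 2 samples of 1 array, and each panel has its own scale. IlrunKO levels lie wholly below WT levels for Ecm1, Hand2 and Pdgfrb and wholly above for Col4a2, while those of Sparc, Col1a1, Col3a1 and Acta2 overlap.

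The 6 genes tied to stellate cell activation had a median of -0.18, with 5 of 6 below 0, but no gene of this group had the same sign on all 4 arrays. Their median was 0.12 and -0.02 with IlrunKO in Cy5 and -0.11 and -0.44 with IlrunKO in Cy3. Without array 4 it was -0.04.

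Acta2, the smooth muscle actin of myofibroblasts, had IlrunKO levels of 7.73, 7.66, 7.83 and 7.23 against WT levels of 7.55, 7.70, 8.32 and 7.78. Its ratios were 0.18, -0.04, -0.48 and -0.55, near or above 0 on arrays 1 and 2 and clearly below on arrays 3 and 4. The mean was -0.22 ± 0.35 (adjusted p = 0.139 in limma), and the orientation of the dyes had an unadjusted limma p of 0.00423 (adjusted p = 0.133). Without the dye term the adjusted p of Acta2 for genotype was 0.524 in limma. Vim, the intermediate filament protein of mesenchymal cells, followed the same order at 0.14, 0.13, -0.19 and -0.91 (mean -0.21 ± 0.49, adjusted p = 0.425 in limma). Ctgf (Ccn2 in RefSeq), a matricellular target of transforming growth factor beta and of stretch, did not: it stood at -0.75, -0.75, 0.52 and -0.92, so that array 3 alone was above 0. Its mean was -0.48 ± 0.67 (adjusted p = 0.34 in limma), and it was -0.84 without array 3 and -0.12 without array 4. Vim likewise was at -0.03 without array 4.

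Tagln, an actin-binding protein of smooth muscle, ranged from -0.23 to 0.14 (mean -0.06). Tgfbi, a matrix protein induced by transforming growth factor beta, ranged from -0.37 to 0.11 (mean -0.16). Tgfb1, the cytokine itself, ranged from -0.17 to 0.23 (mean 0.02, adjusted p = 0.889 in limma), so the gene at the head of this pathway showed no difference outside the spread of the arrays.

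Contractile genes such as Acta2 are classically read by serum response factor from CArG boxes, and the sequence around the Acta2 start is shown for that reason. It covers chr19:34255324-34255623 of GRCm38.p6 (minus strand, RefSeq), from 250 bases before the start to 50 after it, with the near matches to the CArG box in capitals.
Acta2: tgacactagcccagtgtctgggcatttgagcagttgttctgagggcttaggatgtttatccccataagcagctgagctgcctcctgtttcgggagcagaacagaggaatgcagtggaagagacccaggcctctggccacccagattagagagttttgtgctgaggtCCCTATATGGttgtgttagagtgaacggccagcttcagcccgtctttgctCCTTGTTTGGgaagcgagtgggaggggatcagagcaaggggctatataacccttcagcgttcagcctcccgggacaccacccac
The capitals begin 84 and 34 bases before the start, and each run differs from a CArG box by 1 letter. RefSeq promoter windows were at hand for 23 of the 37 genes. On either strand, a box with at most 1 other letter was found in 3 of the 23 (Acta2, Col1a2 and Lama2) and in 9.98% of 32851 mouse promoters, and an exact box in 1 (Lama2) and in 1.63%. The SMAD half-site CAGAC, through which transforming growth factor beta acts, was in 12 of the 23 and in 49.6% of all promoters, and the GC box GGGCGG in 16 and 35.7%. The TATA box TATAAA was in 3 (Col3a1, Ecm1 and Vim) and in 13.6%. These are matches of letters only, and overlap between different motifs was allowed.

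All 6 fibrillar and associated collagens tested among the 37 genes had a mean below 0, Col5a2 having no ratio. Their median was -0.27, and 4 of the 6 had an unadjusted limma p under 0.05, all lower, beside 9.86% of all genes lower. Array medians were -0.14, -0.24, -0.19 and -0.63, so array 4 was far below the rest, and without it the median was -0.17. The chains of type I and type III collagen, the main collagens of scar tissue, were each lowest on array 4.

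Col3a1 had IlrunKO levels of 9.13, 9.42, 9.91 and 8.88 and WT levels of 9.09, 9.85, 10.38 and 10.01. Array 1 was level, arrays 2 and 3 were lower, and array 4 was lower by more than 1 log2 unit (0.04, -0.43, -0.48 and -1.13). The mean was -0.50 ± 0.48 (1.41-fold lower, adjusted p = 0.148 in limma). Col1a1 had the lowest mean of the 35 genes, which is why its values are given in full: the ratios were -0.25, -0.20, -0.29 and -1.28. Arrays 1 to 3 agreed closely and array 4 stood apart, where the WT sample had the highest level of all 8 channels (9.15) and the IlrunKO sample the lowest (7.87). The mean was -0.50 ± 0.52 (1.42-fold lower, adjusted p = 0.196 in limma), and it was -0.26 without array 4. Col1a2, the partner chain, stood at -0.43, -0.02, -0.01 and -0.71, low on arrays 1 and 4 and flat on the others (mean -0.29 ± 0.34, adjusted p = 0.318 in limma). Leaving out array 4 brought Col1a2 to -0.12, and leaving out array 3 to -0.47.

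Col14a1, a collagen that sits on the surface of fibrils, had ratios of -0.38, -0.27, -0.05 and -0.17 and the smallest limma p of this group (mean -0.22 ± 0.14, adjusted p = 0.121). Here array 4 was not the lowest. A dimmer Col14a1 probe had a mean of -0.11 (adjusted p = 0.285 over probes). Col6a1, a chain of the beaded microfibrils around cells, stood at -0.03, -0.07, -0.28 and -0.55 (mean -0.23 ± 0.24, adjusted p = 0.146 in limma). Its ratios were all below 0, those with IlrunKO in Cy3 further than those with IlrunKO in Cy5. Col5a1, which starts type I fibrils, stood between -0.49 and -0.01 with a mean of -0.24 (adjusted p = 0.247 in limma).

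The basement membrane genes divided. Col4a2, a chain of type IV collagen, was the 1 gene of the 35 to lie above 0 on all 4 arrays. Its IlrunKO levels were 9.56, 9.46, 9.64 and 9.40 and its WT levels 9.06, 9.25, 9.39 and 9.27. Every IlrunKO sample was above every WT sample, by most on array 1 (ratios of 0.51, 0.21, 0.25 and 0.14). The mean was 0.28 ± 0.16 (1.21-fold higher, 95% confidence interval 0.10 to 0.45, adjusted p = 0.125 in limma). Col4a1, the chain that joins Col4a2 in the same triple helix, had ratios of 0.51, -0.00, -0.17 and -0.44 (mean -0.03 ± 0.40, adjusted p = 0.922 in limma). The pair agreed on array 1, and on arrays 2 to 4 Col4a2 was above Col4a1; the difference between the genes was not tested. Lama2, a laminin chain best known from muscle, lay below 0 throughout at -0.11, -0.20, -0.15 and -0.41 (mean -0.22 ± 0.13, adjusted p = 0.164 in limma). A dimmer Lama2 probe had a mean of -0.15.

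Col4a1 and Col4a2 lie head to head and are read outward from 1 shared promoter, so the windows around their starts are shown together. In GRCm38.p6 they are chr8:11312777-11313076 on the minus strand for Col4a1 and chr8:11312555-11312854 on the plus strand for Col4a2 (RefSeq). Capitals mark the stretch held by both.
Col4a1: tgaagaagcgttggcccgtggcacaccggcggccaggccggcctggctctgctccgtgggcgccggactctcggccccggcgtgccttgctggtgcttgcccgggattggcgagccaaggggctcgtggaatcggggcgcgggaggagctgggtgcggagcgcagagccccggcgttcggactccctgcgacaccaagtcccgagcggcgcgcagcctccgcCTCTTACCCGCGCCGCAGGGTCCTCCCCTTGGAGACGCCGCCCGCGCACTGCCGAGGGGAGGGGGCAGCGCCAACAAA
Col4a2: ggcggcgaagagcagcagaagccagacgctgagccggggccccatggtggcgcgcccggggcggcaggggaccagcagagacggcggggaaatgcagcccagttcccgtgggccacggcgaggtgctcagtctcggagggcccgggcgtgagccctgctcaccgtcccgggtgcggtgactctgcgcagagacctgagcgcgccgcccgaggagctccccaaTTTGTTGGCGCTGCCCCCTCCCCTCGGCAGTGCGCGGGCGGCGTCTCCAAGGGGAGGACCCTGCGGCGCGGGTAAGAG
The annotated starts are 21 bases apart on opposite strands, with no gap between the genes: each start lies inside the other transcript. The capitals are the same 78 bases (11312777 to 11312854) read from either side. Their probes are far from this promoter, at 11199009 to 11199068 for Col4a1 and 11448840 to 11448899 for Col4a2 in the older build mm9.

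Elastic fibre genes were close to 0, with a median of -0.08 over the 3 tested. The probes of Fbn1, Loxl1 and Eln were dim, at mean log2 levels of 6.80, 6.70 and 6.48, so ratios near 0 do not show equal levels. With processed signals they stood at -0.10, -0.26 and -0.01. Fbn1, which encodes the fibrillin of microfibrils, stood at 0.26, 0.11, -0.25 and -0.44 (mean -0.08 ± 0.32, adjusted p = 0.509 in limma), above 0 with IlrunKO in Cy5 and below 0 with IlrunKO in Cy3. Loxl1, an enzyme that cross-links elastin, stood at 0.05, 0.04, -0.02 and -0.38 (mean -0.08 ± 0.20, adjusted p = 0.613 in limma). Eln, elastin itself, stood at -0.01, 0.02, 0.01 and -0.10 (mean -0.02 ± 0.06, adjusted p = 0.871 in limma). In Eln and this Loxl1 probe arrays 1 to 3 were flat and array 4 alone was lower. A dimmer Loxl1 probe gave 0.04, -0.13, 0.00 and -0.01, with array 4 flat.

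Of the 5 proteoglycans and glycoproteins, all had a mean below 0 (median -0.18). Sparc, a calcium-binding matricellular protein needed for collagen assembly, had IlrunKO levels of 13.05, 13.11, 13.58 and 13.31 and WT levels of 13.37, 13.57, 13.79 and 13.76. The IlrunKO sample was the lower on every array, by -0.32, -0.46, -0.21 and -0.44, although the levels of different arrays overlapped. The mean was -0.36 ± 0.12, or 1.28-fold lower (95% confidence interval -0.52 to -0.19, adjusted p = 0.0767 in limma). A dimmer Sparc probe had a mean of -0.32 (adjusted p = 0.117 over probes).

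Dcn, the fibril-binding proteoglycan decorin, had ratios of -0.67, -0.13, -0.10 and -0.21 (mean -0.28 ± 0.26, adjusted p = 0.216 in limma), array 1 being the lowest. Lum, the related proteoglycan lumican, had ratios of -0.22, 0.12, -0.37 and -0.23 (mean -0.18 ± 0.21, adjusted p = 0.273 in limma). Bgn, biglycan, ranged from -0.21 to 0.14 with a mean of -0.09. Fn1, fibronectin, moved in opposite directions on arrays of the same dye orientation: it stood at -0.49, 0.70, -0.10 and -0.34 (mean -0.06 ± 0.53, adjusted p = 0.91 in limma). Array 2 alone was above 0.

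The 3 genes of matrix turnover had no difference beyond the spread of the arrays. Timp2, an inhibitor of matrix metalloproteinases, stood at -0.38, -0.09, 0.05 and -0.53 (mean -0.24 ± 0.26, adjusted p = 0.323 in limma), with a dimmer probe at a mean of -0.09. Mmp2, the gelatinase of stellate cells, stood at -0.06, 0.01, -0.06 and -0.09 (mean -0.05 ± 0.04, adjusted p = 0.622 in limma). The Mmp2 probe was dim (mean log2 level 6.73), and with processed signals its ratio was -0.13. Timp1, the inhibitor that rises in fibrosis, stood at 0.09, 0.12, 0.09 and -0.24 (mean 0.01 ± 0.17, adjusted p = 0.941 in limma). Timp1 was near the limit of detection, well above background in 3 of 4 IlrunKO and 3 of 4 WT channels.

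**Figure D3:**
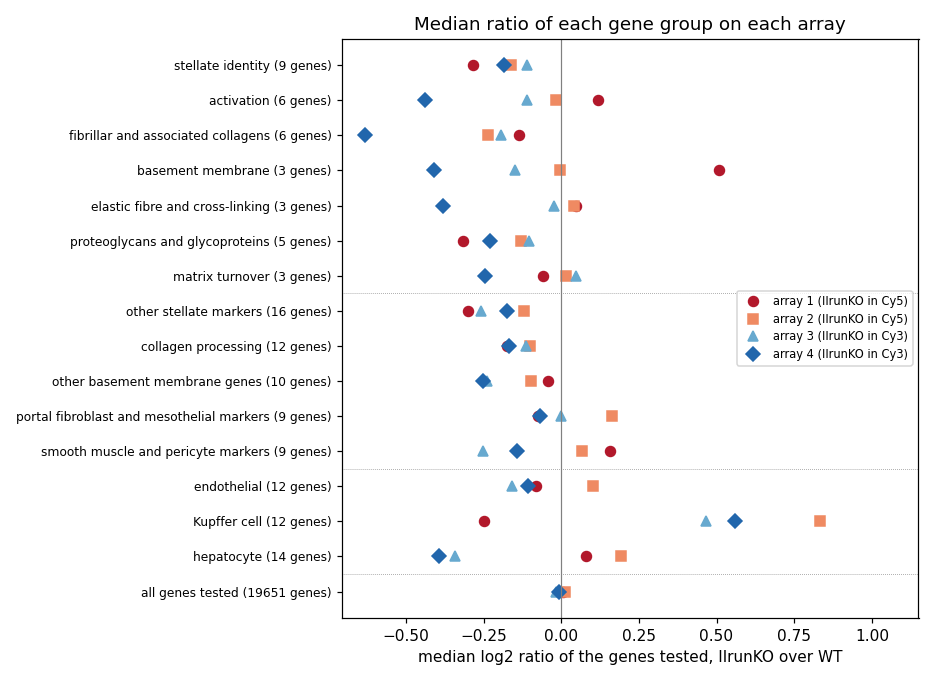
Median log2 ratio of each gene group on each of the 4 arrays; the number of genes tested is given beside each group. Medians of stellate identity, fibrillar collagens, and proteoglycans and glycoproteins lie below 0 on all 4 arrays. So do those of other stellate markers, collagen processing and other basement membrane genes. The fibrillar collagens reach -0.63 on array 4, and the Kupffer cell and hepatocyte medians change sign between arrays.

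Dye orientation was read from the same fit. The dye term asks whether arrays 1 and 2 differ from arrays 3 and 4, and it gave 0 of 35 genes an adjusted limma p under 0.05 (0% of all genes). At an unadjusted p there were 7 of 35 (20%), a share near the 18.3% of all genes, so the count does not set these genes apart. They were Acta2, Fbn1, Ecm1, Col6a1, Tgfb1, Vim and Col4a1. In Ecm1 the arrays with IlrunKO in Cy5 were the lower, and in the other 6 those with IlrunKO in Cy3 were. Which of dye and individual samples differed cannot be told apart, since each sample was labelled with 1 dye.

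A wider set of 143 genes of the same pathways, of which 114 were tested, was read in the same fit. In this set 1 gene rose and 2 fell, and 72.8% lay below 0, with a median of -0.10. Serpinh1, the chaperone that folds procollagen in the endoplasmic reticulum, fell: its ratios were -0.40, -0.39, -0.63 and -0.55, a mean of -0.49 ± 0.12 (1.41-fold lower, adjusted p = 0.0345 in limma). Pdgfa, a ligand of Pdgfra, fell with ratios of -0.35, -0.18, -0.62 and -0.81 (mean -0.49 ± 0.28, 1.40-fold lower, adjusted p = 0.0462 in limma), and its dimmer probe was at -0.52 (adjusted p = 0.0516 over probes). Tgm2, a transglutaminase that cross-links matrix proteins and is also made by hepatocytes and macrophages, rose. Its ratios were 0.38, 0.50, 0.38 and 0.58 (mean 0.46 ± 0.10, 1.38-fold higher, adjusted p = 0.0462 in limma), and its dimmer probe was at 0.42 (adjusted p = 0.0473 over probes).

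These 3 calls depended on which arrays were kept. Serpinh1 had adjusted p values of 0.0581, 0.168 and 0.135 without array 2, 3 or 4, and kept its call without array 1 (0.0482). Pdgfa and Tgm2 lost theirs whichever array was left out, with adjusted p from 0.0604 to 0.171 and from 0.0594 to 0.169. Serpinh1 ratios stayed between -0.51 and -0.47 in those fits, Pdgfa between -0.54 and -0.44, and Tgm2 between 0.41 and 0.51.

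**Figure D4:**
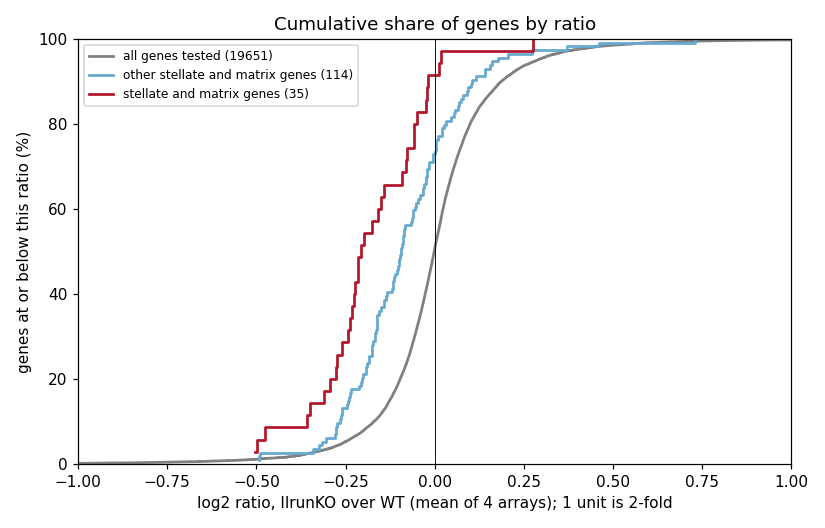
Cumulative share of genes (vertical axis, %) at or below a given mean log2 ratio of IlrunKO over WT (horizontal axis) for the 35 stellate and matrix genes, 114 other genes of these pathways and all 19651 genes tested. From Col1a1 at -0.50 to its last step, Col4a2 at 0.28, the curve of the 35 genes lies left of the curve of all genes.

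Other stellate markers were mostly below 0 as well. Of 16 tested, 15 lay below 0 with a median of -0.20. An unadjusted limma p under 0.05 was seen in 12, all lower (9.86% of all genes lower), though none passed after adjustment. Colec11, a collectin secreted by stellate cells, came closest at -0.34, -0.37, -0.29 and -0.37, nearly the same on every array (mean -0.34 ± 0.04, adjusted p = 0.0527 in limma). It passed without the filter on dim probes (adjusted p = 0.0417) and with a trended robust variance (adjusted p = 0.0383). Among 10 other basement membrane genes 9 lay below 0, and the linker protein Nid1 had the smallest p (mean -0.28, adjusted p = 0.072 in limma). Of 19 genes of transforming growth factor beta signalling 15 lay below 0 with a median of -0.06, and the ligand Tgfb3 had the smallest p (mean -0.19, adjusted p = 0.17 in limma).

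Markers of neighbouring mesenchymal cells lay on both sides of 0. Of 9 portal fibroblast and mesothelial markers 4 lay below 0, and Thy1, the surface protein of portal fibroblasts, had the smallest p at a mean of 0.27 (adjusted p = 0.218 in limma). Of 9 smooth muscle and pericyte markers 5 lay below 0, with Smtn, a protein of contractile smooth muscle, at -0.14 (adjusted p = 0.279 in limma). No test compared these lists with the stellate genes. Of 6 other collagens 4 lay below 0 and 0 had an unadjusted limma p under 0.05, beside 20.5% of all genes. Col6a2 had the smallest p (-0.12). Col5a3, a fibrillar collagen chain named here after its values were seen, lay above 0 on all 4 arrays at 1.08, 0.00, 0.13 and 0.26 (mean 0.37 ± 0.49, adjusted p = 0.335 in limma). The genes of smallest p were Reck (-0.16) among 7 other proteases and inhibitors and Itga1 (-0.19) among 9 integrins, and neither passed.

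Markers of other liver cells were read alongside. All 12 Kupffer cell markers had a mean above 0 (median 0.42), 6 of them at an unadjusted limma p under 0.05 (10.6% of all genes higher). Their array medians, however, were -0.25, 0.83, 0.47 and 0.56. Their summed linear level spanned 38263 to 57374 in IlrunKO and 29498 to 46789 in WT. Of 14 hepatocyte markers 11 lay below 0, 7 of them at an unadjusted limma p under 0.05 (9.86% of all genes lower). At that cut 1 was higher, Asgr1 (0.16). Hepatocyte array medians were 0.08, 0.19, -0.34 and -0.39, with sums of 1036940 to 1478680 in IlrunKO and 1187140 to 1555190 in WT. Of 12 endothelial markers 10 lay below 0 (median -0.06), with sums of 23118 to 26990 in IlrunKO and 24625 to 27859 in WT. The ranges of IlrunKO and WT overlapped in each of these lists, and all of their markers were among the genes tested. Of 6 cholangiocyte markers 2 lay below 0, with sums of 785 to 978 in IlrunKO and 766 to 943 in WT.

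Of 7 lymphocyte markers 4 lay below 0, with sums of 7660 to 9491 in IlrunKO and 9090 to 13307 in WT. The 3 above 0 were Cd3d (0.23), Gzma (0.11) and Cd79b (0.10), and none of them passed. Nkg7, a granule protein of cytotoxic lymphocytes, fell: its ratios were -0.53, -0.53, -0.98 and -0.99 (mean -0.76 ± 0.26, 1.69-fold lower, adjusted p = 0.0301 in limma). With the mean of its probes Nkg7 stood at -0.30 (adjusted p = 0.0686). Of 6 adipocyte markers 5 lay above 0, with sums of 5847 to 9143 in IlrunKO and 2616 to 3186 in WT, which did not overlap. The adipokine gene Cfd rose 14.2-fold (mean 3.82 ± 1.22, adjusted p = 0.0466 in limma) and the adrenergic receptor gene Adrb3 rose 2.05-fold (mean 1.04 ± 0.34, adjusted p = 0.0301 in limma). Fabp4 was the adipocyte marker below 0, at -0.13, -0.31, 0.03 and -0.04 (mean -0.11, adjusted p = 0.327 in limma). Adipoq, Lep and Plin1 were well above background in 0 IlrunKO and 0 WT channels and so were not tested. Without array 3 or array 4 the calls of Nkg7, Cfd and Adrb3 were lost (adjusted p from 0.116 to 0.161), and that of Cfd also without array 1 (0.0507). The part of these cell types in the stellate and matrix ratios was not tested.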

How the data were processed

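Per the labels, 500 ng of liver RNA per sample was labelled, and each array held both genotypes. Per the file headers, the authors deposited scanner files from Agilent Feature Extraction 10.10.1.1 (array design 026655, probe positions in mm9). The deposited intensity is the mean brightness of a spot and the median of its background, beside a processed intensity. The deposited log10 values are ratios of the processed red over green signals, made by the same software per the file headers. The authors also deposited log2 ratios, for which the submitters' processing notes name limma. They run as IlrunKO over WT on every array: their correlation with the scanner ratio of Cy5 over Cy3 was 0.956, 0.943, -0.943 and -0.952 on arrays 1 to 4, and the column medians were -0.039, -0.043, 0.038 and 0.035. How they were corrected and normalised is not stated in the labels.

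R 4.3.3 was used to recompute the ratios from the deposited intensity, files being read by the package data.table, version 1.17.8. The package limma (version 3.58.1) served for normexp correction (offset 50) and loess within each array. Control spots (1377) had weight 0, spots marked as outliers (381, 280, 239 and 224 on arrays 1 to 4) were left out, and 0 spots were saturated. Spots were averaged per probe, and the brightest probe stood for a gene. Of 39429 probes, 26055 were named by RefSeq accession, 4125 by symbol or synonym, and 9249 kept the name in the files. A gene was tested if at least 3 of the 4 channels of a genotype were well above background, and if at least 3 arrays had a value. The model had a dye and a genotype term (2 residual degrees of freedom, prior 2.83). Channel levels were taken after loess and Aquantile scaling.

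On simulated data of 19651 genes in 3 runs this fit recovered 50.3% of changes of 0.5 and 90.3% of changes of 1 on the log2 scale, with 4.52% of calls false. Those data took their variances from this same fit and had independent errors, with no effect shared across an array. Their shares of recovered changes and of false calls therefore cannot be carried over to the real arrays. No change smaller than 0.5 was simulated. The genes, their grouping by role and the lists around them were chosen with earlier results of these data known, so lists are described by counts and medians and have no test. Array values are printed for the 3 genes of smallest p in each role and for genes of mixed sign with an SD over 0.3. From each wider list the genes that passed are named, or else the gene of smallest p. Exons and introns were not assigned, since no annotation of mm9 was at hand. Alternatives left out each array or changed the dye term, the background correction, the normalisation, the filter, the choice of probe or the variance model, or took the deposited log2 ratios.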

Additional observations from a re-analysis of the deposited data

Results flagged for a closer look

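In 5 of the 35 sets of 4 ratios, 1 array stood apart from the other 3 by more than Dixon's 95% critical value; chance marks about 1 in 20 such sets. Array 4 was the lowest in 3 of them: Col1a1 at -1.28, Loxl1 at -0.38 and Timp1 at -0.24. Array 3 was the highest in the others: Ctgf at 0.52, the 1 array on which this gene was above 0, and Hand2 at -0.15, closer to 0 than its other ratios.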

How the results depend on the processing

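No stellate or matrix gene passed in any of the 13 alternatives, and their median stayed below 0 (-0.29 to -0.12). Between 27 and 34 genes lay below 0, the lowest count being without array 4. Of all genes, 65.1% lay below 0 with median centring (median -0.05) and 57.7% with processed signals (median -0.03). In the other alternatives that share was 49.4% to 51.1%. The count at an unadjusted p was 7 to 16 with an array left out (14.0% to 18.1% of all genes). In the other alternatives it was 13 to 19 (10.2% to 21.2% of all genes). The dye term called 0 of these genes in each of the other fits that had one, but 15 of 35 with median centring in place of loess, where it called 27.8% of all genes. Median centring also turned Tgfb1 (-0.00854) and Eln (0.0127), the only changes of sign in 315 values with all arrays kept. With an array left out, 10 of 140 values changed sign, all of genes near 0: Fn1 (-0.36 to 0.24), Col4a1 (-0.15 to 0.10), Tgfb1 (-0.0154 to 0.0505), Timp1 (-0.0700 to 0.0964), Des (-0.0406 to 2.34e-05), Eln (-0.0468 to 0.0084) and Loxl1 (-0.168 to 0.0111). The basement membrane median ran from -0.15 to 0.10. Stellate identity had a median of -0.31 with offset 0, -0.32 with median centring, -0.42 with processed signals and -0.32 in the deposited values. Proteoglycans stood at -0.32 without array 2.

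Calls over all genes depended more on the setting: 269 in the fit reported, 440 without background correction, 449 in the deposited values, 61 with processed signals, 464 without array 1, and 1 each with median centring, without array 3 and without array 4. Serpinh1, Pdgfa and Tgm2 lost their calls with median centring (adjusted p = 0.269, 0.23 and 0.53) and with processed signals (0.0632, 0.0804 and 0.116). Pdgfa and Tgm2 also lost theirs with offset 0 (0.0553 and 0.0609), and Pdgfa without the dye term (0.127) and with the mean of its probes (0.0508). The cause was not tested. Changes of 0.5 were recovered in part only on the simulated data, whose errors were independent, and recovery on the real arrays is not known. A missed call here does not show equal levels. Each array pairs 1 IlrunKO with 1 WT sample, so the reported ratios are already paired and no separate replicate block was fitted.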
